A study of Mus musculus with 4 samples.

Results

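The semaphorin system comprises the semaphorins, a family of guidance ligands, and their receptors, the plexins and neuropilins. Its chromatin accessibility was examined in mouse lymph node stroma, in fibroblastic reticular cells (FRCs), with and without a conditional deletion of the receptor gene Notch2. The 31 genes listed were 20 semaphorins, 9 plexins and 2 neuropilins. A member region was any accessible region whose most covered 300 bp window had its midpoint in one of these genes, or lay nearer to it than to another protein-coding gene and within 100000 bp. This gave 386 regions at 29 genes, out of 110110 regions in all. Sema4c and Plxnb3 had no assigned region and were not analysed here. The assay was ATAC-seq, which uses a transposase to place sequencing adapters in open chromatin, and the cells came from brachial, axillary and inguinal nodes of C57BL/6 mice. FRCs are the fibroblasts that form the scaffold of the node, and here they were sorted as BP3-high, Pdpn+, CD31- and CD45- cells. The control group had floxed Notch2 alleles (Notch2 fl/fl) with no Cre in the genotype label. The Notch2_cKO group had the same alleles together with Ccl19-Cre, in which Cre is expressed from the promoter of the FRC chemokine gene Ccl19. Presence of Cre and loss of Notch2 therefore cannot be told apart. There were 2 libraries in each group. Each library pooled 6 female mice aged 12 weeks, so that animals within a pool were not measured separately.

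Semaphorins bind plexins, single-pass receptors that act on small GTPases, integrins and the cytoskeleton and so steer the shape, adhesion and migration of cells. Secreted class 3 semaphorins mostly bind through a neuropilin, which has little signalling activity of its own and pairs with a plexin. Neuropilins also bind vascular endothelial growth factors. In immune tissue the family is known for its part in the passage of dendritic cells into lymphatic vessels, in lymphocyte activation and in the patterning of vessels and nerves.

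Sequences around the starts of 4 members are shown because their accessibility is described further on. The start of Sema3c was the start region that passed the test, those of Nrp1 and Plxnd1 belong to genes whose summed accessibility changed in opposite directions, and that of Plxnb2 had the highest level in the controls. Each runs from 250 bases before to 50 bases after a RefSeq transcript start (GRCm38.p6, the assembly also called mm10) on the gene's strand. They lie at chr5:17574566-17574865 on the plus strand (Sema3c), chr8:128358823-128359122 on the plus strand (Nrp1), chr6:115994956-115995255 on the minus strand (Plxnd1) and chr15:89180739-89181038 on the minus strand (Plxnb2). Capitals mark matches, on either strand, to GGGCGG (the GC box bound by Sp factors), TGGGAA (the core of the site of RBPJ, the DNA-binding partner of Notch) or TGANTCA (the AP-1 site). No marked match overlaps another.
Sema3c: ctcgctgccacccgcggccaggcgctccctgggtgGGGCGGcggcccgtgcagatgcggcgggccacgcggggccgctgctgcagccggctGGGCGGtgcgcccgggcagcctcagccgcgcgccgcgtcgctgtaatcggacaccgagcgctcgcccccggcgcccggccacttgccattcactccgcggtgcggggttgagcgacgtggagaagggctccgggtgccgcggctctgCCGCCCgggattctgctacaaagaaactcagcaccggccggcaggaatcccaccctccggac
Nrp1: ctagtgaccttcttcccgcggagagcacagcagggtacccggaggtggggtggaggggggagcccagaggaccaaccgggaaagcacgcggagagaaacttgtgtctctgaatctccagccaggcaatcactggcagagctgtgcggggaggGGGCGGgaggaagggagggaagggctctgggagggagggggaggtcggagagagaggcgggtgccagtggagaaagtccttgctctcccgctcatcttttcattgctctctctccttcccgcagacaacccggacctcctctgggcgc
Plxnd1: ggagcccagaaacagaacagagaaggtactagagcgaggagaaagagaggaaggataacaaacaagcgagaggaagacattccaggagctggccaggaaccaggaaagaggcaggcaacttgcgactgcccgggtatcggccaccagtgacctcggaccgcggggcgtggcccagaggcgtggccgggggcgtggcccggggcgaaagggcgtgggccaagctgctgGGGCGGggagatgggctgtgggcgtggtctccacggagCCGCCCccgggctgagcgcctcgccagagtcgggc
Plxnb2: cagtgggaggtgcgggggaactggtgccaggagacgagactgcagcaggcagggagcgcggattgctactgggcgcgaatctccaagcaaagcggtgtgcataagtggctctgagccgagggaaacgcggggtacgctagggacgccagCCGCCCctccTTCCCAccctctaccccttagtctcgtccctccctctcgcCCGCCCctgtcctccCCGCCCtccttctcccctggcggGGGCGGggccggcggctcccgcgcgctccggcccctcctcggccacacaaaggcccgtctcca

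GC boxes are the motif that these 4 windows share, with 3 in Sema3c, 1 in Nrp1, 2 in Plxnd1 and 4 in Plxnb2. The single TGGGAA match is in Plxnb2, on the reverse strand. The RefSeq promoter table held 37 start windows for 26 of the 31 genes, and none for Sema3b, Sema3f, Sema6a, Plxna1 or Plxna4. GGGCGG was present in 73.0% of the 37 windows against 35.7% of all 32851 windows in the table, and their median GC content was 63.7% against 52.7%. TGGGAA was present in 21.6% against 25.6%, and TGANTCA in 8.11% against 7.81%. A match describes these letters and not a bound site.

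Over the most covered window of each region, the libraries held between 12340742 (Notch2_cKO replicate 2) and 30260067 counts (Notch2_cKO replicate 1), and the member regions held between 38715 and 95488 of these. Levels are given as normalized CPM, which is counts scaled to a common library size (CPM) after a loess adjustment of each library, per 300 bp window, in the order control 1, control 2, Notch2_cKO 1 and Notch2_cKO 2. At the targeted gene, the most accessible region, at a gene end (chromosome 3, 98013151 to 98013800), had 55.3, 57.5, 55.3 and 46.2 CPM, and 5 of the 17 Notch2 regions were higher and 1 lower. The labels used here do not say which part of Notch2 is removed, so this does not check the deletion. Control replicate 2 stood apart. All pools were labelled female, but this one had 221 counts at the Y-linked gene Ddx3y and 201 at Eif2s3y, and the other 3 had 0 at both. Counts without it are given for the whole family, for ligands and receptors, and for genes whose count of calls in a direction then moved by more than 1.5 times. Of the FRC markers, Pdpn and Bst1, the gene of BP3, had regions with mean levels of up to 43.0 and 37.3 CPM, whereas Ccl19 and Ccl21a had no assigned region.

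The comparison asked which regions of the semaphorin system differ in accessibility between Notch2_cKO and control FRCs. The difference ran in both directions to the same extent. Of the 386 regions, 62 were higher in Notch2_cKO, 62 were lower and 262 did not pass edgeR's quasi-likelihood test at a Benjamini-Hochberg adjusted p of 0.05. The share that passed was 32.1%, against 23.7% of all 110110 regions, in which 12.4% were higher and 11.3% lower. Among the called regions, 30 rose and 26 fell by 2-fold or more. Both Notch2_cKO libraries lay above both controls in 128 member regions and below both in 121, together 64.5% of them against 59.8% of all regions. The median log2 change was 0.02, against 0.01 over all regions. At least 1 called region was present at 24 of the 29 genes. It was higher only at 7 genes, lower only at 4 and in both directions at 13. Such gene counts rise with the number of regions per gene. The members had 386 regions at 29 genes, against 95424 regions at 17691 genes in all. The share of all genes with a called region is not given here, so these counts are a description. The 5 genes without a called region were Sema3b, Sema4g, Sema6b, Sema6c and Plxna3, whose 12 regions had log2 changes between -0.24 and 0.30. By edgeR none of these 12 passed at an unadjusted p of 0.05 either, and DESeq2 and limma made 0 calls.

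**Figure D1:**
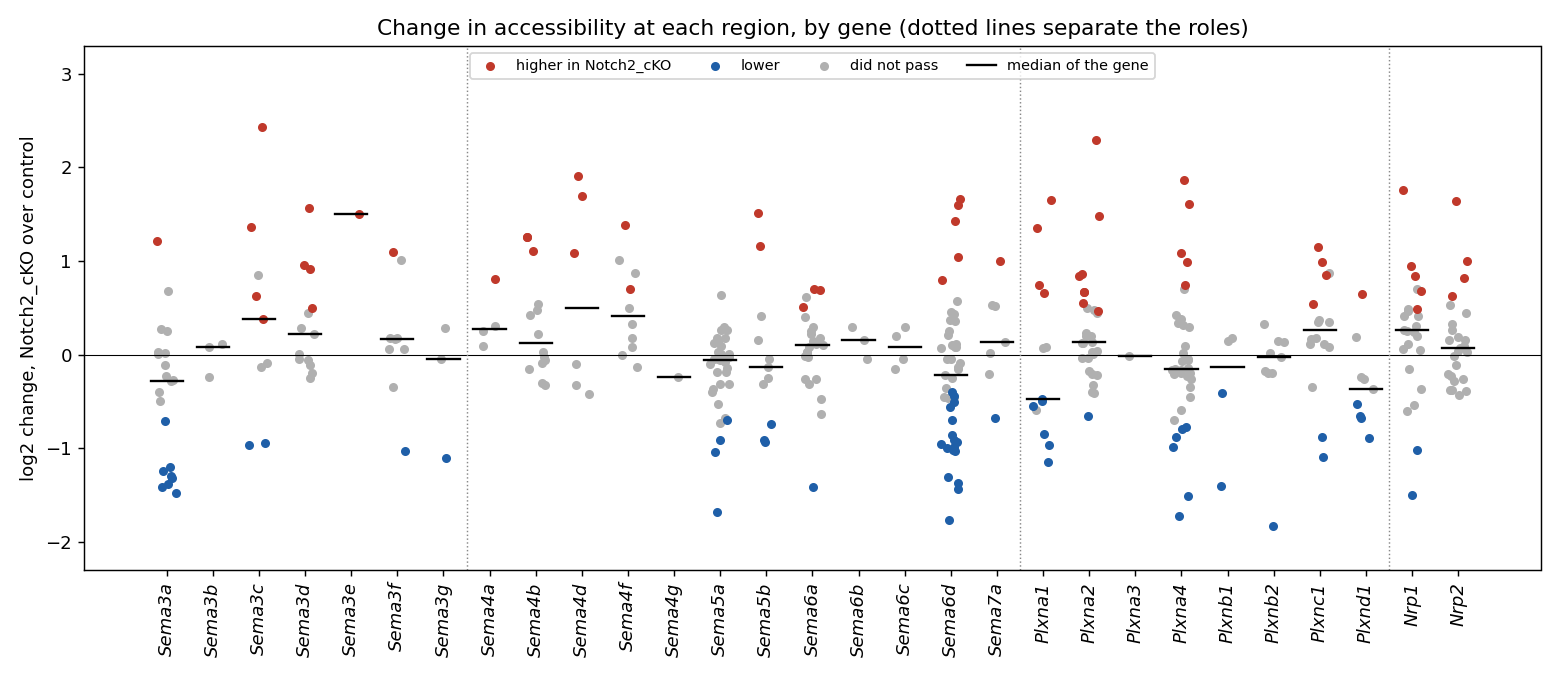
Log2 change (Notch2_cKO over control, vertical axis) of each of the 386 regions, grouped by gene along the horizontal axis with the secreted ligands, membrane-bound ligands, plexins and neuropilins separated by dotted lines. Red points were higher and blue points lower at an adjusted p of 0.05, grey points did not pass, and black bars are gene medians. Most points are grey. Sema6d and Sema3a have the most blue points, Plxna2 has the most red ones, and 13 genes have both.

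With median centring in place of the loess adjustment, the members had 56 higher and 74 lower regions, and the share of higher among called regions fell from 50.0% to 43.1% for the members and from 52.5% to 40.5% for all regions. Without control replicate 2, 42 member regions were higher and 49 lower, and 88 of the 124 called regions kept their call. All 4 leave-one-out fits kept the call at 62 of the 124, 31 in each direction, and no called region turned to the other direction in any of these fits. The group left with 1 library was then assumed to vary like the other group. Leaving out either control also lowered the share called over all regions.

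Ligands and receptors were each split between higher and lower regions. Semaphorin genes had 221 regions, of which 31 were higher and 38 lower (31.2% called, median log2 change 0.002). Plexin and neuropilin genes had 165 regions, of which 31 were higher and 24 lower (33.3% called, median 0.07). Without control replicate 2, 20 ligand regions were higher and 30 lower, and 22 receptor regions were higher and 19 lower. Without control replicate 1 there were 26 and 29 ligand and 22 and 15 receptor regions. Summed over regions, the ratio of ligand to receptor CPM was 1.28 and 1.29 in the controls and 1.22 and 1.33 in Notch2_cKO, so that the groups overlapped. The 2 neuropilins had 9 higher and 2 lower of 49 regions. Their called share of 22.4% was below the 23.7% of all regions, and without control replicate 2 Nrp1 had 2 higher and 2 lower and Nrp2 4 higher. The 8 plexins measured had 22 higher and 22 lower of 116. Secreted ligands had 11 higher and 12 lower of 59, and membrane-bound ligands 20 higher and 26 lower of 162. No test was made of ligands against receptors, since 2 libraries against 2 cannot give an exact permutation p below 0.333.

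Among the secreted ligands, Sema3a, a repellent for axons and a regulator of dendritic cell migration that signals through Nrp1 and A-type plexins, had the most lower regions. Of its 21 regions, 8 were lower and 1 was higher, with a median log2 change of -0.28. The lower region of smallest p lay inside the gene (chromosome 5, 13529151 to 13529850) and had 12.3 and 11.8 CPM in the controls against 4.01 and 5.36 in Notch2_cKO. A second one, also inside the gene (13428551 to 13429150), had 8.85 CPM in both controls against 3.01 and 4.02. In both regions the Notch2_cKO libraries were below the controls without overlap, with log2 changes of -1.42 ± 0.17 (SE, adjusted p = 7.3e-06) and -1.39 ± 0.18 (adjusted p = 1.9e-05). The higher region lay 34272 bp outside the gene and went from 1.17 and 1.17 to 2.73 and 2.68 CPM. Sema3a's most accessible region (13547401 in the same gene) had a control mean of 55.3 CPM and did not pass (log2 -0.28, adjusted p = 0.053).

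Sema3c, a secreted semaphorin that binds both neuropilins and is known from heart and vessel development, held the largest change among the named regions. That region lay 23532 bp outside the gene (chromosome 5, 17753451 to 17754100) and rose from 1.20 and 1.23 to 5.57 and 8.15 CPM. This is a log2 change of 2.44 ± 0.24 (SE, adjusted p = 6.8e-07), or 5.42-fold. Another region inside the gene (17719901) rose from 2.18 and 2.02 to 4.86 and 6.30 CPM. Regions on either side of it fell, from 5.97 and 4.52 to 2.56 and 3.00 CPM at 17704201 and from 5.39 and 5.32 to 2.63 and 2.92 CPM at 17739751. In all, 4 of the 9 Sema3c regions were higher and 2 lower, and the 4 just described passed in each leave-one-out fit whereas the other 2, at and near the gene start, did not.

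Sema3d, a secreted semaphorin of the same chromosome, had 4 called regions of 13, all higher. The one of smallest p, inside the gene at 12503151, rose from 3.65 and 2.53 to 8.33 and 10.2 CPM (log2 1.57 ± 0.20 SE, adjusted p = 1.0e-05). Sema3e, which binds plexin D1 directly, had a single region, 32276 bp outside the gene (13992701 to 13993350). It rose from 2.32 and 2.10 to 5.93 and 6.69 CPM (log2 1.50 ± 0.20 SE). Sema3f, a ligand of Nrp2, had 1 higher and 1 lower region of 9. Its higher region, 4275 bp outside the gene, had 2.13 and 2.50 CPM in the controls and 5.74 and 3.77 in Notch2_cKO and lost its call without Notch2_cKO replicate 1 (adjusted p = 0.081). Its lower region lost its call without control replicate 2 (adjusted p = 0.065). Sema3g, known from vessels, had 1 lower region of 3, with 4.16 and 4.42 CPM against 2.24 and 1.54. Among the called regions of the chromosome 5 ligands, higher ones were thus in the majority at Sema3c and Sema3d and lower ones at Sema3a. The single region of Sema3e was higher. At Sema3c the majority rests on the regions at and near the gene start, which lost their calls without control replicate 2. With DESeq2 and with median centring, Sema3c had 2 higher and 2 lower regions. Sema3d had 2 higher regions without control replicate 2.

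Among the membrane-bound ligands, Sema4d, known on lymphocytes as CD100 and a ligand of B-type plexins and of CD72, had the largest rise by summed counts. Of its 6 regions 3 were higher, all inside the gene on chromosome 13. The region at 51776951 to 51777600 rose from 5.18 and 6.66 to 19.8 and 18.4 CPM, a log2 change of 1.69 ± 0.16 (SE, adjusted p = 3.4e-07). A neighbour at 51771601 to 51772200 rose from 1.24 and 1.08 to 4.59 and 3.99 CPM (log2 1.91 ± 0.24 SE, adjusted p = 7.6e-06). In both, each Notch2_cKO library was above each control, which was a condition for naming them. The other 3 Sema4d regions had log2 changes down to -0.43 and did not pass.

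Sema6d, a transmembrane ligand of plexin A1, had the most regions of the family, 45, and also the most called ones, with 5 higher and 17 lower. Its higher region of smallest p lay inside the gene (chromosome 2, 124635251 to 124635900) and rose from 9.32 and 8.27 to 27.0 and 26.3 CPM, with a log2 change of 1.60 ± 0.14 (SE, adjusted p = 1.4e-07). The 2 lower regions of smallest p lay at 124475701 to 124476350, with 13.0 and 15.0 CPM against 6.51 and 7.49, and at 124467051 to 124467650, with 9.72 and 10.8 CPM against 5.12 and 5.28. Their log2 changes were -1.02 ± 0.16 and -0.99 ± 0.16 (SE). The lower regions clustered along the gene. Between 370000 and 500000 bp from the gene's lower coordinate, 11 of 14 regions were lower and their summed level went from 102.9 and 101.5 to 58.0 and 67.9 CPM. From 500000 to 600000 bp, 4 of 13 regions were higher and 1 was lower, and the summed level was 193.5 and 170.9 CPM in the controls and 188.2 and 206.1 in Notch2_cKO. A run of 7 neighbouring regions (124461301 to 124496400) was lower throughout in the main fit, with log2 changes from -1.02 to -0.56. Those at 124467051, 124472851 and 124475701 kept their call in each leave-one-out fit, and the others of the run did not. These stretches were chosen after the values had been seen and were not tested. The most accessible member region of all lay in Sema6d (124610201), with a control mean of 74.0 CPM, and did not pass (log2 0.06). The split at Sema6d was 5 higher and 20 lower with median centring, 4 and 7 with DESeq2, and 4 and 14 without control replicate 2. It was 4 and 11 without control replicate 1 and 4 and 9 without Notch2_cKO replicate 1.

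Sema5a, a ligand with thrombospondin repeats, had 4 called regions of 34, all lower and all inside the gene. The one of smallest p (chromosome 15, 32676401 to 32677050) fell from 7.04 and 6.85 to 2.11 and 2.23 CPM, a log2 change of -1.69 ± 0.19 (SE, adjusted p = 3.8e-06). The remaining membrane-bound ligands had smaller numbers of called regions. Sema4b had 3 higher of 14, Sema4f 2 higher of 10 and Sema4a, a semaphorin of dendritic cells and lymphocytes, 1 higher of 4. Sema5b had 2 higher and 3 lower of 11, Sema6a 3 higher and 1 lower of 23, and Sema7a, the glycolipid-anchored ligand of plexin C1 and of integrins, 1 higher and 1 lower of 7. The regions of smallest p in these genes had log2 changes of 1.11 (Sema4b), 0.70 (Sema4f), 0.80 (Sema4a), 1.16 (Sema5b), -1.41 (Sema6a) and 1.00 (Sema7a). Without control replicate 2 those at Sema4f (adjusted p = 0.077) and Sema7a (0.072) did not pass, nor did the lower region of Sema7a or any of the 3 higher regions of Sema6a. Sema4f then had 1 higher region.

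**Figure D2:**
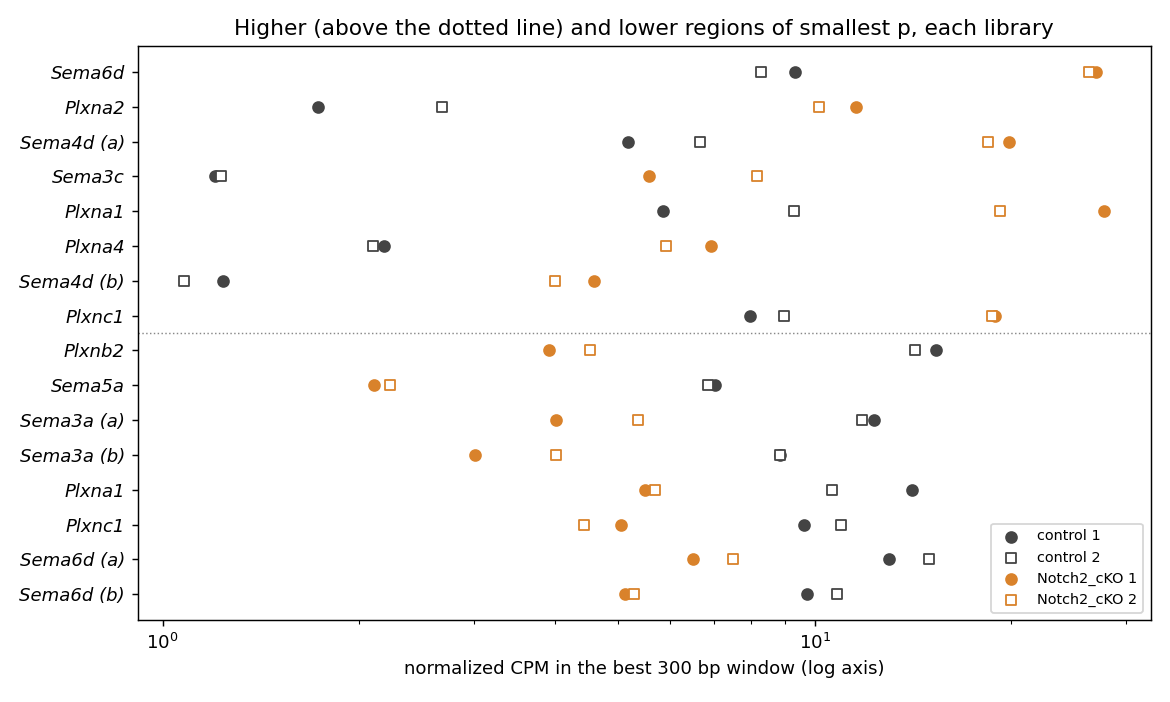
Normalized CPM per 300 bp window (horizontal log axis) in each library at the 8 higher regions of smallest p (above the dotted line) and the 8 lower ones. Grey symbols are controls and orange ones Notch2_cKO, circles replicate 1 and squares replicate 2. Regions were chosen with both orange symbols on one side of both grey ones, and the largest gap is at Sema3c.

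Plexins changed in both directions, often within 1 gene. Plxna2, an A-type plexin that acts with neuropilins and as a receptor for Sema6 ligands, had 8 higher and 1 lower of 29 regions. Its strongest region, inside the gene (chromosome 1, 194712351 to 194712950), rose from 1.73 and 2.69 to 11.6 and 10.1 CPM. The log2 change was 2.30 ± 0.20 (SE, adjusted p = 1.9e-07), or 4.91-fold. A second one at 194781501 rose from 2.98 and 1.86 to 5.70 and 8.16 CPM. Without control replicate 2 the split was 4 higher and 1 lower, and without control replicate 1 or Notch2_cKO replicate 2 the lower region did not pass.

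Plxna1, the receptor of Sema3a with Nrp1 and of Sema6d, had 4 higher and 6 lower of 13 regions, and the directions were separated in space in part. The lower regions lay within the gene or up to 6437 bp beyond its higher coordinate, and 3 of the 4 higher ones lay beyond its lower coordinate. The remaining higher region (89349951, log2 0.66) lay inside the gene, between lower regions at 89348401 and 89351451. The strongest rise was 76563 bp outside the gene (chromosome 6, 89239501 to 89240000), from 5.85 and 9.31 to 27.8 and 19.3 CPM (log2 1.65 ± 0.19 SE, adjusted p = 4.2e-06). The strongest fall was inside the gene (89339351 to 89340000), from 14.1 and 10.7 to 5.49 and 5.68 CPM (log2 -1.15 ± 0.17 SE, adjusted p = 6.6e-05). In both regions the groups were separate, which was a condition for naming them. The controls themselves differed at Plxna1, with summed levels of 176.2 and 137.7 CPM, and without control replicate 1 the split was 4 higher and 2 lower.

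Plxna4, an A-type plexin of the nervous system, had 5 higher and 6 lower of 35 regions, all inside the gene. The one of smallest p (chromosome 6, 32314851 to 32315450) rose from 2.18 and 2.10 to 6.94 and 5.92 CPM (log2 1.61 ± 0.20 SE, adjusted p = 7.6e-06). Plxnc1, the receptor of Sema7a, had 4 higher and 2 lower of 16. A region 69085 bp outside Plxnc1 (chromosome 10, 95013751 to 95014450) rose from 7.95 and 8.98 to 18.9 and 18.7 CPM (log2 1.15 ± 0.14 SE). One inside it (94931801 to 94932450) fell from 9.64 and 11.0 to 5.05 and 4.42 CPM (log2 -1.10 ± 0.17 SE). Of the 7 Plxnc1 regions within 10 kb of the gene, 1 was called, and it was lower. Without control replicate 1 the splits were 3 higher and 5 lower at Plxna4 and 2 and 2 at Plxnc1, and without Notch2_cKO replicate 1 it was 2 and 6 at Plxna4. Plxnc1 had 4 higher and 1 lower without control replicate 2.

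The B-type plexins, receptors of class 4 semaphorins such as Sema4d, had 3 called regions, 1 of 9 at Plxnb2 and 2 of 4 at Plxnb1, all lower. Among all regions 23.7% were called, 11.3% lower, so this small count is a description and no excess of calls at these genes. In Plxnb2, a region inside the gene (chromosome 15, 89177501 to 89178050) fell from 15.4 and 14.2 to 3.91 and 4.52 CPM. This was the lower region of smallest p in the family (log2 -1.84 ± 0.17 SE, adjusted p = 2.5e-07). The other 8 Plxnb2 regions did not pass and had a median log2 change of -0.004. Plxnb1 had 2 lower regions of 4, that of smallest p with 2.18 and 1.87 CPM against 0.797 and 0.686. Leaving out either control left 1 of them. Plxnd1, the receptor of Sema3e and a plexin known from endothelium, had 4 lower and 1 higher of 9 regions. The lower region of smallest p, inside the gene on chromosome 6 at 115988951, fell from 8.93 and 9.20 to 5.02 and 4.65 CPM (log2 -0.89 ± 0.17 SE, adjusted p = 0.00052). It is the one Plxnd1 region that passed in each leave-one-out fit. Without control replicate 2 it was the only called one, and without control replicate 1 there were 2, both lower.

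At the neuropilins, most regions did not pass, and more of the called ones were higher than lower. At Nrp2, the co-receptor for Sema3f and Sema3c and for lymphatic growth factor, 4 of 25 regions passed and all were higher. They lie between positions 62721801 and 62748250 of chromosome 1, in the part of the gene nearer its start. The strongest by p (62724851 to 62725500) rose from 18.5 and 18.3 to 32.0 and 33.1 CPM, a log2 change of 0.82 ± 0.12 (SE, adjusted p = 3.7e-05). Its neighbour on one side (62721801) rose from 3.92 and 2.93 to 6.35 and 7.47 CPM, and that on the other side (62732001) from 0.328 and 0.461 to 1.28 and 1.19 CPM. These 3 passed in each leave-one-out fit, whereas the 4th (62747701) did not pass without control replicate 1. With median centring, 1 other Nrp2 region was lower.

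At Nrp1, the co-receptor for Sema3a and for vascular endothelial growth factor, 5 regions were higher and 2 lower of 24. The region of smallest p lay 57574 bp outside the gene (chromosome 8, 128562651 to 128563350) and rose from 0.812 and 0.488 to 2.29 and 2.06 CPM (log2 1.76 ± 0.31 SE, adjusted p = 0.00033). A more accessible one, 89474 bp outside the gene (128594601), rose from 17.1 and 18.2 to 29.0 and 27.2 CPM. The 2 lower regions lay on the other side of the gene, 91191 and 88241 bp from it, at 3.16 and 2.88 against 1.37 and 1.69 CPM and at 1.33 and 1.33 against 0.475 and 0.449 CPM.

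**Figure D3:**
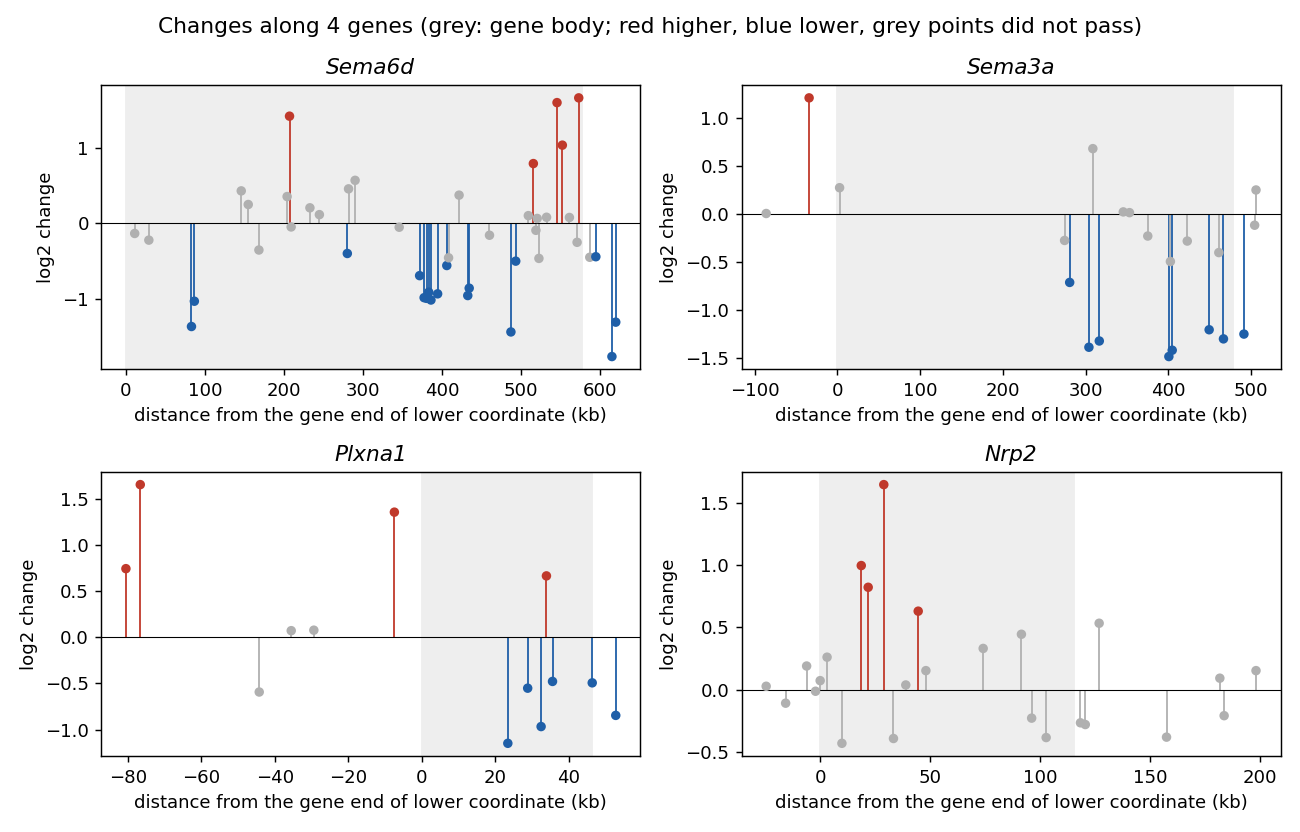
Log2 change (vertical axis) of every region assigned to Sema6d, Sema3a, Plxna1 and Nrp2 against the distance (in kb) from the end of the gene with the lower coordinate, with the gene body shaded. Red is higher, blue is lower and grey did not pass. The blue group between 370000 and 500000 bp in Sema6d, the blue regions inside Plxna1 and the 4 red regions in the first part of Nrp2 stand out.

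Counts were also summed over the regions of each gene, which weights a gene's change by its most accessible regions. Of the 29 genes, 9 were higher and 2 lower, against 14.7% of all 17691 genes with a call, 8.57% higher and 6.13% lower. Sums depend on the number of regions and are not levels to be compared between genes. The members had 386 regions at 29 genes, against 95424 regions at 17691 genes in all. A larger sum can let a smaller change pass, so the number of members called is a description. Sema4d rose from 15.0 and 15.2 to 31.5 and 30.3 CPM (log2 1.04 ± 0.12 SE, adjusted p = 1.4e-05). Sema3a fell from 173.3 and 163.5 to 116.1 and 144.1 CPM (log2 -0.38 ± 0.08 SE, adjusted p = 0.0049). For Sema3e the sum is its single region. The other higher genes had log2 changes of 0.47 (Sema4f), 0.34 (Sema4a), 0.33 (Sema3c), 0.28 (Sema3d), 0.27 (Nrp1), 0.26 (Plxnc1) and 0.20 (Plxna2), and the other lower gene was Plxnd1 (-0.29). The groups did not overlap in these 11 genes, but the genes were picked by the test on the same libraries, so this adds no support. Nrp1 went from 146.1 and 142.0 to 171.3 and 176.1 CPM. Nrp2, with 149.5 and 158.7 against 181.3 and 170.5 CPM, did not pass (log2 0.19, adjusted p = 0.066). Sema6d, despite its 22 called regions, had overlapping sums of 387.2 and 353.7 against 325.5 and 356.9 CPM. The calls at Sema4d and Sema3a held in every alternative run, and that at Sema3e in all but the limit of 10 kb to the gene, where its single region drops out. Those at the other 8 did not pass without control replicate 1 and without control replicate 2, where 2 genes were higher and 1 or 2 lower.

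**Figure D4:**
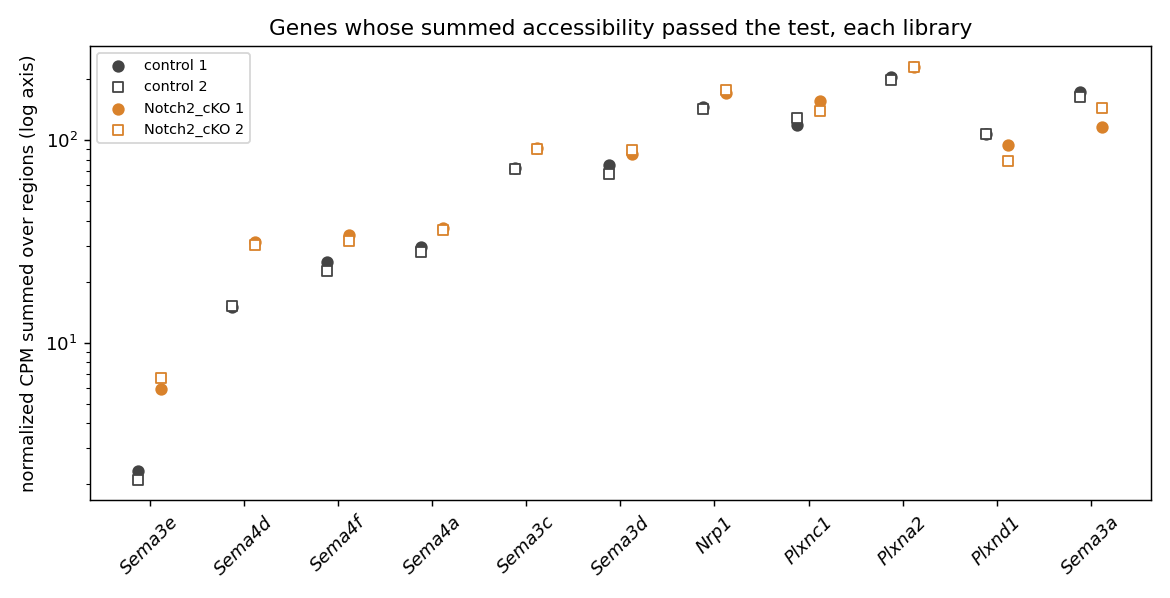
Normalized CPM summed over the regions of each gene (vertical log axis) in each library, for the 11 genes that passed the test, ordered by log2 change. Grey symbols are controls and orange ones Notch2_cKO, circles replicate 1 and squares replicate 2. Sema3e and Sema4d show the widest gaps, and Plxnd1 and Sema3a are the 2 genes in which the orange symbols are lower.

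A smaller share of member regions passed at gene ends than inside or outside the genes. Within 1000 bp of a gene end, 1 member region was higher and 1 lower of 26 (7.69%), against 10.2% of all gene-end regions. Inside genes, 37 were higher and 49 lower of 249 (34.5%, against 25.0% of all such regions), and outside them 24 higher and 12 lower of 111 (32.4%, against 24.2%). A start region was found for 23 genes. Where no start was listed (Sema3b, Sema3f, Sema6a, Plxna1 and Plxna4), a region at either gene end was taken. None was found at Sema3a, Sema3e, Sema4a, Sema4d, Sema5b or Sema6d. By level in the controls, the starts ran from Plxnb2 (56.1 and 53.3 CPM), Plxna2 (53.6 and 52.7) and Sema3c (40.6 and 44.0) down to Sema4g (3.09 and 2.79), Sema3g (1.29 and 2.14) and Sema4f (1.54 and 1.22). Plxnb2 and Plxna2, next to each other in this order, overlapped in the controls.

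The Sema3c start, whose 3 GC boxes are printed above, rose from 40.6 and 44.0 to 60.7 and 48.7 CPM (log2 0.38 ± 0.11 SE, adjusted p = 0.015). It did not pass without control replicate 1 (adjusted p = 0.22), control replicate 2 (0.075) or Notch2_cKO replicate 1 (0.15). The region at the end of Plxna1 fell from 34.2 and 26.3 to 24.8 and 17.2 CPM (log2 -0.49 ± 0.15 SE, adjusted p = 0.023) and did not pass without control replicate 1 (0.29) or Notch2_cKO replicate 2 (0.061). The Nrp1 start had 32.7 and 29.8 CPM against 35.8 and 42.2 (log2 0.31, adjusted p = 0.055). The Plxnb2 start stayed within 53.3 to 56.1 CPM in the 4 libraries, while the region inside the same gene described above had 0.280 times its control level in Notch2_cKO.

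**Figure D5:**
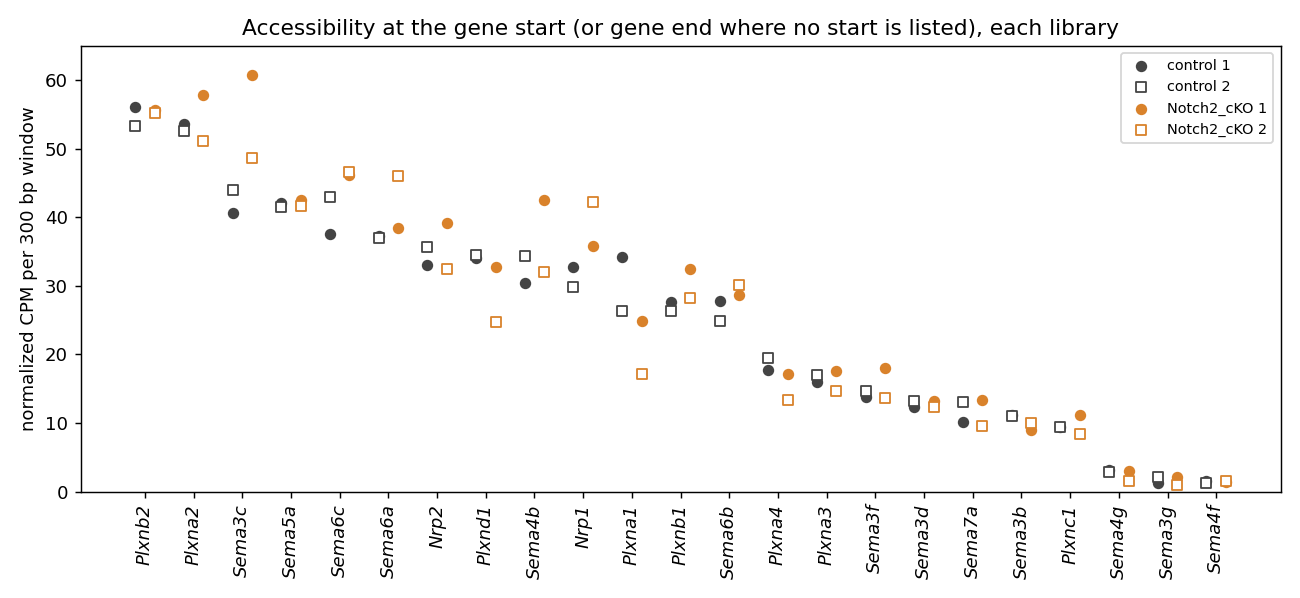
Normalized CPM per 300 bp window (vertical axis, from 0) at the most accessible region within 1000 bp of the start of 23 genes, or of either gene end where no start is listed, ordered by the control mean. Grey symbols are controls and orange ones Notch2_cKO, circles replicate 1 and squares replicate 2. The 2 regions that passed the test are those of Sema3c, higher in Notch2_cKO, and Plxna1, lower.

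The regions of other genes within 500000 bp of a named region are given as a description, since the named regions were picked for small p. Around the rising Sema3c region, 44 such regions had a median log2 change of -0.53, with 5 higher and 20 lower. At the Plxnb2 region, which fell, 64 neighbours had a median of 0.08, with 7 higher and 1 lower. At the falling Plxnc1 region 10 of 62 neighbours were higher and 1 lower. Each of the 2 falling Sema6d regions had 2 of 10 neighbours higher and 0 lower, and the falling Sema3a region at 13529151 had 1 of 2 higher. Some other named regions had more neighbours called in their own direction than in the other. For comparison, 12.4% of all regions were higher and 11.3% lower. At the rising Plxnc1 region 8 of 60 neighbours were higher and 1 lower, at the rising Sema6d region 4 of 16 were higher, and at the 2 Sema4d regions 10 and 9 of 76 were higher and 5 lower. The falling Sema3a region at 13428551 had 4 neighbours, of which 2 were lower. A region may act on a gene other than the nearest one.

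Ligands and receptors known to pair are set side by side here as values, without a test of any pair. Sema3e was higher by its single region (log2 1.50) while its receptor Plxnd1 was lower by its sum (log2 -0.29). Sema3a was lower by its sum (log2 -0.38) while its co-receptor Nrp1 was higher (log2 0.27) and Plxna1 had 4 higher and 6 lower regions. Sema3c, which binds both neuropilins, was higher by its sum (log2 0.33), as was Nrp1, and Nrp2 (log2 0.19) did not pass. The sums of Sema3f (log2 0.12), a ligand of Nrp2, and of Sema6d (log2 -0.12) and its receptor Plxna1 (log2 -0.19) did not pass either. As given above, the calls of Sema3c, Nrp1 and Plxnd1 by sums were lost when either control was left out. Sema4d was higher by its sum (log2 1.04). The sums of its receptors Plxnb1 (log2 -0.11, adjusted p = 0.44) and Plxnb2 (log2 -0.13, adjusted p = 0.20) did not pass edgeR's test. By regions, Plxnb1 had 2 lower of 4 and Plxnb2 1 of 9. For Sema7a and Plxnc1, the ligand had 1 higher and 1 lower region and the receptor 4 higher and 2 lower.

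Partners of the receptors and signalling genes had called regions in both directions, which are set beside 12.4% higher and 11.3% lower among all regions. The 16 genes that act at the membrane, such as co-receptors and growth factors that bind neuropilins, had 182 regions, of which 34 were higher (18.7%) and 24 lower (13.2%), with a median log2 change of 0.03. By summed counts 4 of the 16 passed (25.0%, against 14.7% of all genes), all higher: Nrcam, an adhesion molecule that associates with neuropilins (log2 0.48), Flt1, a receptor of vascular endothelial growth factor (0.43), Plxdc2 (0.40) and Plxdc1 (0.50). The regions of smallest p were a lower one 68886 bp outside the integrin gene Itga1 (14.5 and 15.2 against 3.10 and 3.97 CPM, log2 -2.12), a higher one inside Nrcam (3.24 and 4.38 against 14.0 and 14.5 CPM, log2 1.89) and a higher one 21812 bp outside Flt1 (9.97 and 11.6 against 30.6 and 27.2 CPM, log2 1.42). Of the 30 genes that act inside the cell, 29 had regions, and Cdk5 was not analysed here. Of their 259 regions 48 were higher (18.5%) and 26 lower (10.0%), with a median of 0.08. By summed counts 4 of these 29 passed (13.8%, against 14.7% of all genes), all higher. They were Mical3, of the MICAL oxidases that act on actin downstream of plexins (log2 0.23), and Dpysl3 (0.21), Dpysl4 (0.87) and Dpysl5 (0.31) of the collapsin response mediator family, which relays Sema3a signals. The regions of smallest p were a higher one inside Gsk3b (2.18 and 1.39 against 7.33 and 7.85 CPM, log2 2.09), a lower one inside Dpysl3 (9.04 and 8.22 against 2.82 and 2.70 CPM, log2 -1.63) and a lower one outside Rock1 (14.0 and 13.1 against 4.71 and 6.78 CPM, log2 -1.30).

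Markers of other cell types were read because neuropilins, plexin D1 and Flt1 are also endothelial genes. In bulk libraries, fewer cells of a type and lower accessibility per cell cannot be told apart. The 12 endothelial marker genes had 12 higher and 14 lower of 117 regions (22.2% called, against 23.7% of all regions). Their summed level was 654.7 and 643.9 CPM in the controls and 651.3 and 649.4 in Notch2_cKO, so that the groups overlapped, and none of the 12 was at 0. By sums, Tek (log2 0.56) and Cdh5 (0.43) were higher and Reln (-0.63) and Vwf (-0.31) lower, which is 33.3% of these 12 genes against 14.7% of all genes. For leukocytes, 7 marker genes had regions, and Cd79a and Itgax had none. Of these 19 regions 0 passed edgeR's test, 1 had an unadjusted p under 0.05, and DESeq2 and limma called 0, with summed levels of 144.1 and 135.1 against 126.4 and 130.8 CPM. Mural cell genes had 4 higher and 7 lower of 57 regions (19.3% called, 441.8 and 438.7 against 421.0 and 432.3 CPM). Schwann and neural cell genes, without S100b, had 4 higher and 1 lower of 23 (21.7% called, 110.9 and 113.3 against 132.3 and 120.5 CPM). FRC genes had 8 higher and 9 lower of 82 (20.7% called). Among mural cell genes, Rgs5 (log2 0.36) was higher and Mcam (-0.67) lower by sums, 28.6% of 7 genes. Among FRC genes, Pdgfra (0.38) was higher, 12.5% of 8. Of the leukocyte and of the Schwann and neural genes, 0 were called by sums. The part of any of these cell types in the changes at the semaphorin system was not tested.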

How the data were processed

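ATAC-seq was measured in 4 libraries of sorted lymph node FRCs, 2 control and 2 Notch2_cKO. Per the submitters' processing notes, the tools were deepTools, Picard 2.27.5, SAMtools 1.14, Bowtie2 2.4.5, cutadapt and Trim Galore 0.6.7, and the build was mm10. How windows were called and filtered, and whether reads were shifted for the transposase, is not given in the sources used. The authors deposited integer counts of 678058 windows, each 300 bp long and set every 50 bp so that they overlap. The labels call these counts loess normalized, yet library totals differed up to 2.44 times, so they were treated as counts and normalized again.

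Merging windows with gaps of up to 100 bp gave 110110 regions with a median width of 600 bp, each represented by the window with the highest summed count. Genes were the 21896 protein-coding RefSeq genes, and 95424 regions were assigned to one. Loess offsets (span 0.3) were computed with limma 3.58.1 in R 4.3.3 with the data.table package in version 1.17.8, genotype was fitted with edgeR 4.0.16 by its quasi-likelihood test on all regions, with no term for replicates and Benjamini-Hochberg adjustment over all of them. Gene sums were fitted in the same way over 17691 genes. The scripts were tested on simulated data. SEs were derived from the F statistic.

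The members and gene lists were chosen with earlier results of these data known. Named were the 8 higher and 8 lower member regions of smallest p with both Notch2_cKO libraries beyond both controls, the region of smallest p of every other member with a call, the start regions, and up to 3 genes per other list. Further regions of these genes were named after their values were seen. Replicates are separate pools per the labels. They differed beyond counting noise (chi-square per region 1.89 between controls and 2.72 between Notch2_cKO libraries), so each counted as 1. One item of the marker lists is not reported here. Alternatives were TMM scaling, median centring, DESeq2 1.42.0, limma, a filter on level, replicate blocks, an adjusted p of 0.01, a distance of 10 kb, other merging, mean windows and each library left out.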

Additional observations from a re-analysis of the deposited data

How the results depend on the processing

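No called region of the family changed direction under the 12 alternatives that keep the regions and the threshold, and 52 of the 124 passed under all 12, where the filter on level itself removes regions. The 16 named regions kept their direction and call in all 208 values computed. They had been picked for the smallest p in the same libraries, which favours this result. Against 62 higher and 62 lower member regions, 31 and 38 ligand regions, 31 and 24 receptor regions and 9 and 2 genes by sums, DESeq2 gave 38 and 34, 20 and 20, 18 and 14, and 8 and 1. DESeq2 also called fewer regions in all. Its share was 18.7% of the members and 11.7% of all regions, against 32.1% and 23.7% in the main fit. With regions within 10 kb of a gene, 20 receptor regions were higher, and Plxnc1 turned to a log2 change of -0.029 by its sum (adjusted p = 0.902), since its distant regions are left out. At an adjusted p of 0.01, 5 genes were higher and 1 lower by sums. The replicate numbers do not pair the libraries (correlation of same-numbered deviations -0.29). With 2 libraries per group, the crossed pairs then have a positive correlation of the same size. Over all regions, a block for the crossed pairs gave 31.7% called, against 23.7% in the main fit. Whether the crossed pairs share a batch was not tested. A replicate block gave 58 higher and 59 lower regions and 5 higher and 2 lower genes, and crossed pairs, added after the data were seen, gave 74 and 79 regions and 10 and 3 genes. Leaving out 1 library at a time gave 42 to 69 higher and 44 to 70 lower member regions, 20 to 33 and 28 to 47 ligand regions, 22 to 36 and 15 to 25 receptor regions, and 2 to 12 higher and 1 to 5 lower genes by sums. Of 164 alternative values of the 11 genes by sums, 131 kept the call, 32 lost it at 8 genes and 1 reversed. Notch2_cKO replicate 2 had the fewest counts, and intervals cover counting error and the spread of these pools.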
